A study of Rattus norvegicus with 9 samples.

Results

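The genes described here are 10 rat genes of the antioxidant programme that the transcription factor NRF2 controls. They are Nfe2l2, which encodes NRF2, its inhibitor Keap1, and the targets Osgin1, Nqo1, Hmox1, Slc7a11, Gclc, Gclm, Txnrd1 and Srxn1. They were taken by symbol from the 18006 genes that had a value in the RNA-seq samples, and all 10 were found. Osgin1 was selected on its measured fall in PF against the other groups, so its PF values are given as a description with no test, and it is left out of the counts in both comparisons with PF.

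KEAP1 holds NRF2 in the cytoplasm and passes it to a ubiquitin ligase, so that NRF2 is degraded in unstressed cells. Oxidants and electrophiles react with cysteines of KEAP1, after which NRF2 accumulates, pairs with small MAF proteins and binds the antioxidant response element in front of genes for glutathione synthesis, thioredoxin recycling and quinone and heme breakdown. BACH1 represses several of these genes at the same element. In mast cells (MCs), antigen that crosslinks IgE on the receptor FcεRI triggers degranulation, and reactive oxygen species form during this response.

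RNA was sequenced from 9 samples of RBL-2H3, a leukemia line of rat basophils that serves as an MC model. The 3 Ctrl samples are called untreated in the sample labels, although a protocol field shared by all samples describes sensitization and stimulation, so it is not settled whether Ctrl cells received IgE. The 3 IgE/DNP samples (DNP) received anti-DNP IgE at 50 ng/mL over 12 h and then the antigen DNP-HSA at 100 ng/mL over 4 h. The 3 PF samples had the same IgE and the same antigen dose and, between the 2 steps, 1 h of PF, an agent that the labels do not identify. The labels give PF replicates 1, 2 and 3 stimulation times of 4, 5 and 6 h in the sample field and 4 h in the shared field. All samples are of a single tumour line, and no label says that replicates were separate cultures, so p-values measure only the spread between these samples, which may be technical.

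Values were read as FPKM, fragments scaled by transcript length and by the mapped total, which allows levels of genes of different length to be compared. They summed to between 573023 and 591539 in the Ctrl and DNP samples and to between 610206 and 630069 in the PF samples. The number of reads is unknown, so the error of a value is known only from its 3 replicates. The most similar sample by median difference always belonged to the same group. The labels name peripheral blood as the tissue, which does not describe a cell line. Of 11 markers of mast cells and basophils, 10 had a value and all 10 were at 1 FPKM or more in every sample, summing to between 5.36e+03 and 5.76e+03 FPKM. Of these 10, 1 was called higher and 4 lower in DNP vs Ctrl by the test described below (14.7% and 14.4% of all genes tested). It was 3 and 2 in PF vs DNP (18.1% and 30.7%) and 3 and 4 in PF vs Ctrl (23.1% and 34.6%). The part of these markers in the results was not tested. The markers of fibroblasts, B cells, macrophages and erythrocytes summed to at most 1.86 FPKM in any sample, and those of T cells to between 6.78 and 9.61 FPKM, nearly all of it from Cd3e.

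The antioxidant genes did not move as a block. In DNP compared with Ctrl samples, Nqo1 and Srxn1 were higher and Osgin1, Hmox1 and Slc7a11 were lower. In PF compared with DNP samples, Nqo1 and Gclm were higher, while Srxn1, Slc7a11, Gclc and Txnrd1 were lower. Srxn1 and Slc7a11 in DNP vs Ctrl, and Gclm in PF vs DNP, lost their calls under several alternative settings given below. The regulators Nfe2l2 and Keap1 did not pass the test in any of the 3 comparisons. All 10 genes were at 3.83 FPKM or more in every sample, so every member passed the filter on low values, and all were tested except Osgin1 in the comparisons with PF.

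Each comparison was tested with limma on log2(FPKM + 1) in its own 6 samples, and a gene was called at an adjusted p of at most 0.05 over all genes tested. In DNP compared with Ctrl, 5 of the 10 members were called, 2 higher and 3 lower, where 29.2% of the 10392 genes tested were called, 14.7% higher and 14.4% lower. In PF compared with DNP, 6 of the 9 members other than Osgin1 were called, 2 higher and 4 lower, where 48.8% of 10329 genes were called, 18.1% higher and 30.7% lower. In PF compared with Ctrl, 7 of the 9 were called, 2 higher and 5 lower, where 57.7% of 10361 genes were called, 23.1% higher and 34.6% lower. The median log2 fold change of the members was -0.02 in DNP vs Ctrl, against -0.01 for all genes tested. It was -0.13 against -0.04 in PF vs DNP and -0.25 against -0.05 in PF vs Ctrl. The 3 comparisons share samples, so they are not independent of each other.

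The PF comparisons moved with the scale of the values. In PF vs DNP the median log2 fold change of all genes was -0.04 with the values as deposited, 0.02 after scaling by median ratios and -0.13 after scaling each sample to the mean of the deposited sums. The calls were split into 1870 higher and 3172 lower with the values as deposited, 2758 and 2600 by median ratios, and 869 and 4302 by the mean sum. In PF vs Ctrl the 3 medians were -0.05, 0.015 and -0.12, and the splits were 2389 and 3586, 3142 and 3012, and 1575 and 4316. The members split into 2 higher and 4 lower, 3 and 4, and 1 and 5 in PF vs DNP over the same 3 scales, and into 2 and 5, 2 and 5, and 1 and 6 in PF vs Ctrl. Nqo1 was called higher, and Srxn1, Slc7a11, Gclc and Txnrd1 lower, on every one of these scales in both PF comparisons.

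**Figure D1:**
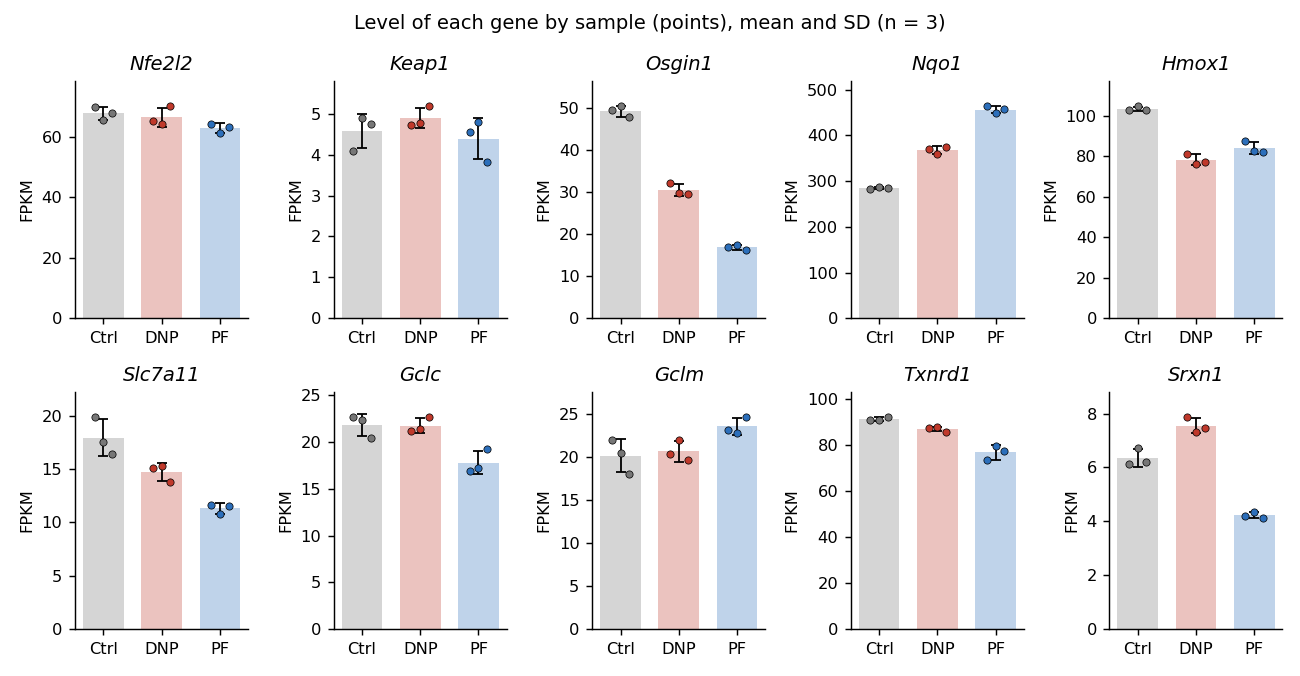
Level of each of the 10 genes in FPKM (vertical axis, starting at 0) in the Ctrl, DNP and PF samples; points are samples, bars the group means and error bars the SD (n = 3). Osgin1 steps down from 49.2 in Ctrl to 30.5 in DNP and 16.8 in PF, while Nqo1 steps up from 285 to 368 and 456.

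Nfe2l2 was at 69.81, 65.62 and 68.11 FPKM in Ctrl, at 65.15, 64.16 and 70.12 in DNP and at 64.46, 61.25 and 63.33 in PF samples. DNP overlapped with both other groups, whereas all PF samples lay below all Ctrl samples. The log2 fold change was -0.03 (SE 0.0438, adjusted p = 0.646) in DNP vs Ctrl, -0.08 (SE 0.0423, adjusted p = 0.173) in PF vs DNP and -0.10 (SE 0.0405, 95% interval -0.197 to -0.012, adjusted p = 0.0525) in PF vs Ctrl. The PF differences did pass the test when samples were scaled to the mean sum, at -0.17 (adjusted p = 0.00984) against DNP and -0.18 (adjusted p = 0.00935) against Ctrl.

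Keap1 was the member with the lowest level in Ctrl, at 4.1, 4.89 and 4.76 FPKM there, with 4.73, 4.78 and 5.18 in DNP and 4.55, 4.79 and 3.83 in PF. The 3 groups overlapped. The 95% interval of its log2 fold change ran from -0.100 to 0.262 in DNP vs Ctrl, from -0.326 to 0.060 in PF vs DNP and from -0.267 to 0.162 in PF vs Ctrl, so each interval held 0 and changes in either direction.

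Osgin1 encodes oxidative stress induced growth inhibitor 1, a protein first described as a growth suppressor. It was at 49.52, 50.37 and 47.75 FPKM in Ctrl samples, at 32.18, 29.83 and 29.58 in DNP samples and at 16.85, 17.5 and 16.19 in PF samples. The 3 groups were separate, with Ctrl highest and PF lowest. In DNP vs Ctrl, a contrast that the choice of Osgin1 did not use but that shares its samples with those that were used, it fell by 38% (log2 fold change -0.67, SE 0.0445, 95% interval -0.774 to -0.570, adjusted p = 5.51e-05). Of all genes tested there, 0.539% fell at least as far, Osgin1 included. Genes that rose are not in this share. These are levels in bulk RNA, in which a lower level in every cell and a loss from some of the cells cannot be told apart.

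The PF values of Osgin1 are the ones that led to its choice. Its mean in PF, 16.8 ± 0.655 FPKM (SD, n = 3), was 0.552 of the DNP mean and 0.342 of the Ctrl mean, log2 differences of -0.82 and -1.49. Ordered from the lowest log2 difference, Osgin1 stood at position 397 of 10329 genes in PF vs DNP, between Erf (-0.823) and Tnks1bp1 (-0.820), and at position 49 of 10361 in PF vs Ctrl, between Zbtb1 (-1.495) and Mad2l1bp (-1.492). Its related gene Osgin2 had 8.41 ± 0.59 FPKM in Ctrl, 8.25 ± 0.153 in DNP and 7.42 ± 0.0569 in PF (SD, n = 3) and was not called (adjusted p = 0.814 in DNP vs Ctrl, 0.0656 in PF vs DNP and 0.064 in PF vs Ctrl).

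Nqo1, which encodes a quinone reductase, had the highest level of the 10 genes. It was at 281.76, 287.83 and 285.01 FPKM in Ctrl samples, at 369.5, 359.85 and 375.74 in DNP samples and at 463.47, 449.0 and 456.96 in PF samples. Its groups did not overlap either, and their order was the reverse of that of Osgin1. Nqo1 rose by 29.3% in DNP vs Ctrl (log2 fold change 0.37, SE 0.0306, adjusted p = 0.000156) and by 23.9% in PF vs DNP (log2 fold change 0.31, SE 0.0307, adjusted p = 6.14e-05). In PF vs Ctrl the log2 fold change was 0.68 (SE 0.0329, 95% interval 0.603 to 0.753, adjusted p = 1.68e-06), a ratio of means of 1.6.

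Hmox1 encodes heme oxygenase 1, the inducible enzyme that opens heme to biliverdin. It was at 102.95, 104.63 and 102.86 FPKM in Ctrl samples, at 81.21, 76.02 and 77.38 in DNP samples and at 87.42, 82.65 and 82.31 in PF samples. The Ctrl samples were highest, and the PF samples lay above the DNP samples by a small gap, the lowest PF sample being at 82.31 and the highest DNP sample at 81.21. Hmox1 fell by 24.4% in DNP vs Ctrl (log2 fold change -0.40, SE 0.035, adjusted p = 0.000203). The PF vs DNP difference of 0.10 (SE 0.0393, 95% interval 0.015 to 0.193) missed the threshold (adjusted p = 0.0545), and PF stayed below Ctrl (log2 fold change -0.30, SE 0.0378, adjusted p = 0.000234). The PF vs DNP difference was called after scaling by median ratios (0.17, adjusted p = 0.00828) and was 0.0062 (adjusted p = 0.918) after scaling to the mean sum.

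**Figure D2:**
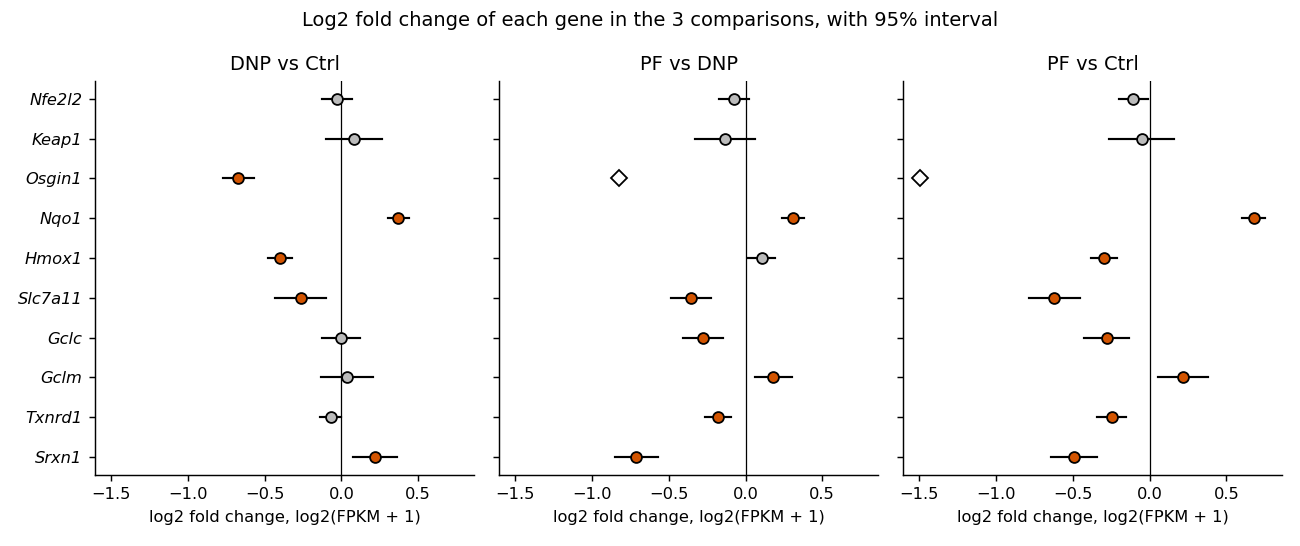
Changes of the 10 genes as differences of mean log2(FPKM + 1) (horizontal axis) in the 3 comparisons, with the 95% interval from limma; orange points passed an adjusted p of 0.05, grey points did not, and the open diamonds are Osgin1 where it was not tested. Nqo1 lies to the right of 0 in all 3 panels (0.37, 0.31 and 0.68) and Slc7a11 to the left (-0.27, -0.35 and -0.62), while Srxn1 changes side, from 0.22 in DNP vs Ctrl to -0.71 in PF vs DNP.

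Slc7a11 encodes xCT, the transporter subunit that brings cystine into the cell in exchange for glutamate and so supplies cysteine for glutathione. It was at 19.88, 17.59 and 16.41 FPKM in Ctrl samples, at 15.11, 15.28 and 13.81 in DNP samples and at 11.64, 10.76 and 11.52 in PF samples. The 3 groups stood apart in the same order as those of Osgin1. Slc7a11 fell by 18% in DNP vs Ctrl (log2 fold change -0.27, SE 0.0735, adjusted p = 0.0273) and by 23.3% in PF vs DNP (log2 fold change -0.35, SE 0.0581, adjusted p = 0.00108). In PF vs Ctrl the log2 fold change was -0.62 (SE 0.0732, adjusted p = 0.000151). The DNP vs Ctrl call was lost when any of Ctrl replicate 1, Ctrl replicate 2 or the DNP replicates was left out (adjusted p from 0.0503 to 0.0881).

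Gclc and Gclm encode the catalytic and the modifier subunit of glutamate-cysteine ligase, which makes the rate-limiting step of glutathione synthesis. Gclc was at 22.67, 22.4 and 20.44 FPKM in Ctrl samples, at 21.18, 21.45 and 22.68 in DNP samples and at 16.94, 17.27 and 19.22 in PF samples. Gclm was at 21.98, 20.48 and 18.09 FPKM in Ctrl samples, at 20.33, 22 and 19.68 in DNP samples and at 23.2, 22.85 and 24.65 in PF samples. For both genes Ctrl and DNP overlapped, and the PF samples lay outside both, below them for Gclc and above them for Gclm.

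In DNP vs Ctrl the 95% interval of the log2 fold change was -0.125 to 0.118 for Gclc and -0.133 to 0.204 for Gclm, and the sign of both depended on the scale or on the samples kept. In PF vs DNP, Gclc fell by 18.2% (log2 fold change -0.28, SE 0.0571, adjusted p = 0.00366) and Gclm rose by 14% (log2 fold change 0.18, SE 0.0536, adjusted p = 0.0207). In PF vs Ctrl the log2 fold changes were -0.28 (SE 0.0639, adjusted p = 0.00536) and 0.22 (SE 0.071, adjusted p = 0.028). The Gclm calls were lost after scaling to the mean sum, at 0.09 (adjusted p = 0.268) and 0.14 (adjusted p = 0.141). They were also lost without Ctrl replicate 2, Ctrl replicate 3, PF replicate 1 or PF replicate 3 in PF vs Ctrl (adjusted p from 0.0509 to 0.0848), and without DNP replicate 1, DNP replicate 3 or PF replicate 3 in PF vs DNP (0.0619 to 0.0732).

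Txnrd1 encodes the cytosolic thioredoxin reductase, the selenoprotein that keeps thioredoxin reduced. It was at 91.03, 90.91 and 92.21 FPKM in Ctrl samples, at 87.3, 87.98 and 85.92 in DNP samples and at 73.39, 79.68 and 77.55 in PF samples. The groups did not overlap, with PF lowest. The DNP vs Ctrl difference of -0.07 (SE 0.0298, 95% interval -0.137 to -0.001) was not called (adjusted p = 0.117). Txnrd1 fell by 11.7% in PF vs DNP (log2 fold change -0.18, SE 0.0377, adjusted p = 0.00421) and by 15.9% in PF vs Ctrl (log2 fold change -0.25, SE 0.0404, adjusted p = 0.000943).

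Srxn1 encodes sulfiredoxin, which repairs peroxiredoxins whose cysteine has been overoxidized. It was at 6.13, 6.73 and 6.19 FPKM in Ctrl samples, at 7.87, 7.33 and 7.45 in DNP samples and at 4.2, 4.35 and 4.12 in PF samples. The DNP samples were highest and the PF samples lowest, with no overlap. Srxn1 rose by 18.9% in DNP vs Ctrl (log2 fold change 0.22, SE 0.0628, adjusted p = 0.0317) and fell by 44.1% in PF vs DNP (log2 fold change -0.71, SE 0.0627, 95% interval -0.853 to -0.568, adjusted p = 3e-05). In PF vs Ctrl it was lower by -0.49 on the log2 scale (SE 0.0666, adjusted p = 0.000324). The DNP vs Ctrl call was lost when any replicate other than Ctrl replicate 2 was left out (adjusted p from 0.0592 to 0.106).

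Non-overlapping groups were counted as a description beside these tests. In DNP vs Ctrl, 6 of the 10 members had groups that did not overlap, where 45.8% of all genes tested had none. In PF vs DNP it was 7 of 9 against 57.6%, and in PF vs Ctrl 8 of 9 against 64.8%. With 3 samples against 3, the exact permutation test of a single gene cannot give a p under 0.1, and every member whose groups did not overlap was at that value wherever it was tested.

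The promoters of the members were searched for the core of the antioxidant response element, TGACNNNGC, and for the AP-1 site, TGANTCA, on both strands, because the study is about the AP-1 subunit c-Fos and both kinds of factor bind such letters. The windows were RefSeq's 300 bases around the gene start, from 250 bases before it, in build GRCr8, which is not the build of the expression values. Of the 10 members, 9 had a window, Txnrd1 had 2 windows, and Hmox1 had none. The 5 stretches that held a match are shown so that the members can be compared, with the match in capitals, read 5′ to 3′ in the direction of the gene, and with positions counted from 1 at the gene start and from -1 before it.
Gclm, chr2:213031953-213031981, + strand, match at -172 to -164: tgcggtttctGCTTAGTCAttgtcttcca
Txnrd1, chr7:22755964-22755992, - strand, match at -78 to -70: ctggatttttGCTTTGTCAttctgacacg
Nfe2l2, chr3:81028950-81028971, - strand, match at 39 to 47: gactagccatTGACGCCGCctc
Srxn1 upstream site, chr3:161064740-161064766, + strand, match at -62 to -56: tctgagggccTGAGTCAccacgctgtg
Srxn1 start site, chr3:161064797-161064825, + strand, match at -5 to 4: aaactcacccTGAGTCAGCgacccgacgc

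The first 3 stretches hold the core of the antioxidant response element, which in Gclm and Txnrd1 is on the strand opposite to the gene. The core was found in 12.1% of all 33469 windows and in 13.5% of the 15547 windows of genes with a value here. The AP-1 letters were found in 7.33% of all windows and 5.56% of those of genes with a value. Among the members they were found in Srxn1 alone, which had 2 matches, and the match at the gene start is followed by GC. The longer form TGANTCAGC, which overlaps with the AP-1 site, was found in 1.11% of all windows and 0.952% of those of genes with a value. The Srxn1 match of this form, TGAGTCAGC, differs from the searched core TGACNNNGC only by G in place of C. It was therefore not counted as the element core, although its letters are close to it. Srxn1 was called higher in DNP vs Ctrl and lower in PF vs DNP. As given above, the DNP vs Ctrl call was lost when any replicate other than Ctrl replicate 2 was left out. Of the 3 members with the element core as searched, Gclm was higher and Txnrd1 lower in PF vs DNP and Nfe2l2 was not called. A match is a description of the letters in these windows, and nothing was measured at these sites. Bases outside the windows were not searched, so a member with no match here may hold the letters elsewhere.

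Ratios of members within a sample do not depend on how that sample was scaled. The ratio of Nqo1 to Osgin1 was 5.69, 5.71 and 5.97 in Ctrl samples, 11.5, 12.1 and 12.7 in DNP samples and 27.5, 25.7 and 28.2 in PF samples. It holds the level that Osgin1 was chosen for, so it was not tested. The ratio of Nqo1 to Hmox1, both of them enzymes that NRF2 is known to induce, was 2.75 ± 0.0171 in Ctrl, 4.71 ± 0.154 in DNP and 5.43 ± 0.125 in PF (SD, n = 3), with no overlap between groups (exact permutation p = 0.1 in each comparison, two-sided).

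The ratio of the modifier to the catalytic subunit, Gclm to Gclc, was 0.97, 0.914 and 0.885 in Ctrl samples, 0.96, 1.03 and 0.868 in DNP samples and 1.37, 1.32 and 1.28 in PF samples. Ctrl and DNP overlapped (exact permutation p = 0.7), and all PF samples lay above both (exact permutation p = 0.1 against each, the smallest possible). The ratio of Txnrd1 to Srxn1 was 14.4 ± 0.788 in Ctrl, 11.5 ± 0.455 in DNP and 18.2 ± 0.682 in PF (SD, n = 3), with no overlap between any pair of groups (exact permutation p = 0.1 in each comparison). Unlike the fold changes of Gclm, these ratios are the same on each of the scales above.

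**Figure D3:**
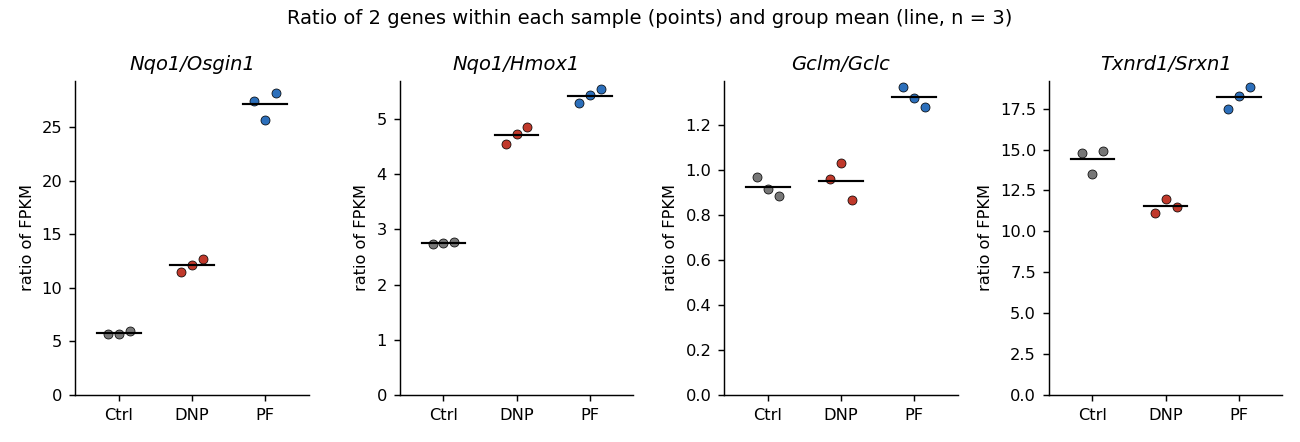
Ratio of the FPKM of a pair of members within each sample (vertical axes, starting at 0), for Ctrl, DNP and PF; points are samples and lines the group means (n = 3). Nqo1/Osgin1 runs from 5.79 in Ctrl to 27.1 in PF, and Gclm/Gclc is near 1 in Ctrl and DNP (0.923 and 0.951) and 1.33 in PF.

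The genes whose levels followed Osgin1 most closely were found by the root mean square difference, over the 9 samples, of log2(FPKM + 1) centred on the Ctrl mean. Of 10199 genes tested in all comparisons, the nearest were Tp53inp1 (0.0915), a gene that p53 is known to induce, Mad2l1bp (0.0924), which acts on the spindle checkpoint, Zfyve1 (0.102), a FYVE domain protein, Snai1 (0.114), a transcriptional repressor, and Pafah2 (0.12), an enzyme that breaks down platelet-activating factor. Tp53inp1 was at 73.98, 61.31 and 62.88 FPKM in Ctrl samples, at 43.47, 44.25 and 42.33 in DNP samples and at 22.63, 23.33 and 22.89 in PF samples. Each of the 5 had groups that stepped down from Ctrl to DNP to PF. They were chosen for this likeness, so it was not tested. None of the other members was among them: the nearest was Slc7a11 at position 764 (0.561), followed by Hmox1 at position 1751 (0.709), and Nqo1 was the farthest at position 9991 (1.39).

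**Figure D4:**
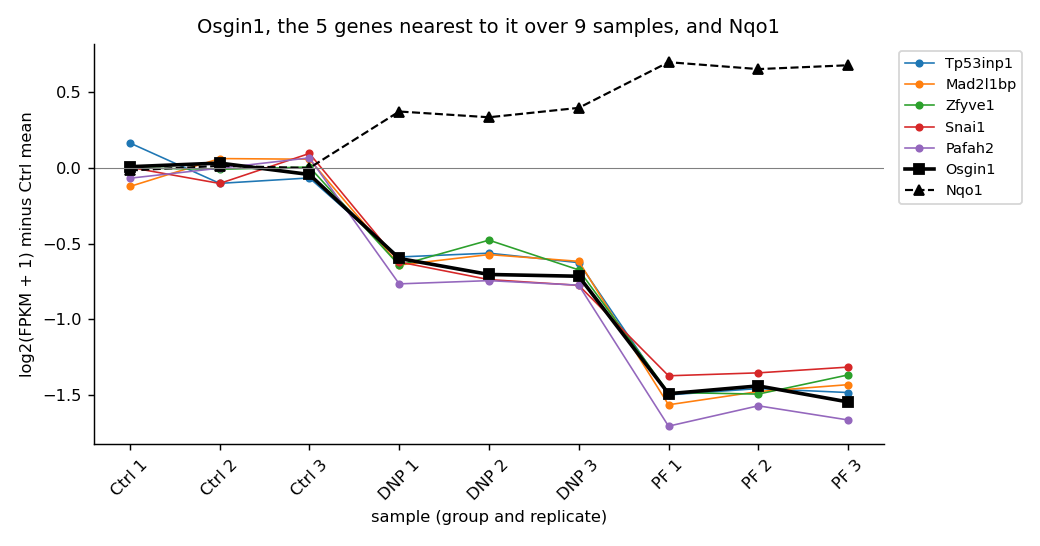
Log2(FPKM + 1) minus the Ctrl mean (vertical axis) in each of the 9 samples (horizontal axis) for Osgin1 (black squares), the 5 genes nearest to it (thin lines) and Nqo1 (dashed, triangles). The 6 falling lines run close together, and Nqo1 runs the opposite way; lines join samples only to guide the eye.

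Beyond the members, 99 genes of the pathway were listed by role, of which 96 had a value. In DNP vs Ctrl, 12 of the 81 that were tested rose and 12 fell, where 14.7% of all genes tested rose and 14.4% fell. In PF vs DNP, 29 of 80 rose and 14 fell, where 18.1% of all genes rose and 30.7% fell. In PF vs Ctrl, 24 of 80 rose and 16 fell, where 23.1% of all genes rose and 34.6% fell. Their median log2 fold changes were 0.003, 0.07 and 0.07, against the medians of all genes given above. The balance moved with the scale, as did that of all genes. In PF vs DNP, 37 rose and 13 fell by median ratios, where 2758 of all genes were higher and 2600 lower. By the mean sum, 14 rose and 21 fell, where 869 of all genes were higher and 4302 lower. In PF vs Ctrl it was 34 and 15 by median ratios and 17 and 23 by the mean sum, beside the splits of all genes given above. The shares of all genes given by list below are those of the deposited values.

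Regulators and partners of NRF2 moved in both directions in DNP vs Ctrl, where 3 of 12 rose and 3 fell (14.7% and 14.4% of all genes). With PF against DNP, 1 of the 12 rose and 7 fell (18.1% and 30.7% of all genes). Maff, a small MAF partner, was at 2.67, 3.2 and 3.0 FPKM in Ctrl samples, at 7.74, 9.76 and 8.01 in DNP samples and at 2.11, 1.98 and 1.49 in PF samples. It rose by 1.26 on the log2 scale in DNP vs Ctrl (SE 0.0962, adjusted p = 0.000109) and was lower in PF vs DNP by a log2 fold change of -1.73 (SE 0.111, adjusted p = 4.7e-06). The DNP samples stood above both other groups, and PF lay below Ctrl.

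Bach1, the repressor at the antioxidant response element, was at 7.4, 6.2 and 6.45 FPKM in Ctrl samples, at 10.66, 10.46 and 9.77 in DNP samples and at 6.67, 5.94 and 7.13 in PF samples. It rose in DNP vs Ctrl (log2 fold change 0.56, SE 0.0733, adjusted p = 0.00118) and fell in PF vs DNP (-0.58, SE 0.0728, adjusted p = 0.000251), and its PF and Ctrl samples overlapped (adjusted p = 0.862). Nfe2l1, which encodes the related factor NRF1, was at 39.74, 39.39 and 39.88 FPKM in Ctrl samples, at 32.25, 31.26 and 30.06 in DNP samples and at 20.02, 19.87 and 19.62 in PF samples, separate levels in falling order. Its log2 fold change was -0.34 in DNP vs Ctrl and -0.63 in PF vs DNP (adjusted p = 0.00067 and 5.87e-06). Sqstm1, whose protein p62 binds KEAP1, had a mean of 423 FPKM in Ctrl, 299 in DNP and 268 in PF and fell in DNP vs Ctrl (log2 fold change -0.50, adjusted p = 0.000129). Rbx1, of the ubiquitin ligase, was called higher in PF vs DNP (0.09, adjusted p = 0.0472), but its sign turned on the mean-sum scale (-0.008).

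Of the glutathione genes, 2 of 21 rose and 5 fell in DNP vs Ctrl, where the shares over all genes were 14.7% and 14.4%. Against DNP, 9 of the 21 rose in PF and 4 fell (18.1% and 30.7% of all genes). On the mean-sum scale, 5 rose and 5 fell, where 869 of all genes were higher and 4302 lower. Chac1, whose product degrades glutathione, was at 53.61, 57.07 and 55.31 FPKM in Ctrl samples, at 44.76, 45.71 and 46.1 in DNP samples and at 11.22, 12.5 and 11.44 in PF samples. Its log2 fold change was -1.87 in PF vs DNP (SE 0.0487, adjusted p = 6.02e-08), the lowest among the listed genes tested there. Ggt1, which splits extracellular glutathione, fell as well (-0.60, adjusted p = 0.000847), from 2.24 to 1.13 FPKM. Gpx4, which reduces lipid peroxides, rose from 165 to 210 FPKM (log2 fold change 0.34, adjusted p = 8.86e-05). Slc3a2, the partner chain of xCT, fell in DNP vs Ctrl from 358 to 288 FPKM (-0.32, adjusted p = 0.000974), while Gss, the enzyme after glutamate-cysteine ligase, rose from 16 to 18.9 FPKM (0.23, adjusted p = 0.0272).

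Of 12 thioredoxin and peroxiredoxin genes, 1 rose and 2 fell in DNP vs Ctrl (14.7% and 14.4% of all genes). In PF vs DNP, 6 rose and 1 fell (18.1% and 30.7% of all genes). On the mean-sum scale it was 3 and 3, where 869 of all genes were higher and 4302 lower. Sesn2, a stress-induced sestrin, fell in both, with means of 87.3 FPKM in Ctrl, 62.9 in DNP and 46 in PF (log2 fold changes -0.47 and -0.44, adjusted p = 8.36e-05 and 2.96e-05). Prdx1, an abundant cytosolic peroxiredoxin, rose in PF vs DNP from 936 to 1.15e+03 FPKM (0.30, adjusted p = 0.000267). Txnrd2, the mitochondrial counterpart of Txnrd1, rose in DNP vs Ctrl (0.34, adjusted p = 0.019) and in PF vs DNP (0.28, adjusted p = 0.012, or 0.0551 on the mean-sum scale), and its mean in PF was 6.12 FPKM against 3.65 in Ctrl.

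Of the heme and iron genes, 1 of 10 rose and none fell in DNP vs Ctrl, a share near or below that of all genes (14.7% and 14.4%). Between PF and DNP, 5 of the 9 that passed the filter on low values rose and none fell (18.1% and 30.7% of all genes). On the mean-sum scale, 1 rose and 1 fell, where 869 of all genes were higher and 4302 lower. Ftl1, a ferritin chain, was called higher in PF vs DNP (log2 fold change 0.34, adjusted p = 8.08e-05), but ferritin genes have near-identical copies among which reads may be split. Slc40a1, the iron exporter ferroportin, was at 1.17, 2.09 and 2.37 FPKM in Ctrl samples and was listed at 0 in 2 of the 3 PF samples and at 0.5 in the other. The filter on low values left it out of PF vs DNP. Against Ctrl, 4 of the 10 genes rose in PF and 2 fell, including Slc40a1 (23.1% and 34.6% of all genes). Tfrc, the transferrin receptor, had means of 107 FPKM in Ctrl, 122 in DNP and 136 in PF and rose in DNP vs Ctrl (0.19, adjusted p = 0.00304) and in PF vs Ctrl (0.34, adjusted p = 0.000212).

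Of the 7 genes that supply NADPH, 2 rose and 1 fell in DNP vs Ctrl (14.7% and 14.4% of all genes). In PF vs DNP, 3 rose and none fell (18.1% and 30.7% of all genes). On the mean-sum scale it was 3 and 1, where 869 of all genes were higher and 4302 lower. Tkt, of the pentose phosphate pathway, had means of 735 FPKM in Ctrl, 800 in DNP and 949 in PF (log2 fold changes 0.12 and 0.24, adjusted p = 0.0212 and 0.000347). Idh1 went the other way in DNP vs Ctrl, from 30.6 to 24.6 FPKM (-0.31, adjusted p = 0.0022). Of 15 genes for detoxification and export, 3 rose and none fell in DNP vs Ctrl (14.7% and 14.4% of all genes). Between PF and DNP, 3 of them rose and 2 fell (18.1% and 30.7% of all genes). By median ratios it was 6 and 2, where 2758 of all genes were higher and 2600 lower. By the mean sum it was 1 and 3, where 869 were higher and 4302 lower. Cbr3, a carbonyl reductase, rose in DNP vs Ctrl (0.35, adjusted p = 0.00625), and Aldh3a2, a fatty aldehyde dehydrogenase, fell in PF vs DNP from 16.3 to 12.4 FPKM (-0.37, adjusted p = 0.000449). Of the 3 superoxide and peroxide genes, 1 fell in DNP vs Ctrl (14.4% of all genes) and 2 rose in PF vs DNP (18.1% of all genes). On the mean-sum scale 1 rose in PF vs DNP, where 869 of all genes were higher. Sod1, the cytosolic superoxide dismutase, fell in DNP vs Ctrl (-0.14, adjusted p = 0.0152) and rose in PF vs DNP (0.23, adjusted p = 0.00058).

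**Figure D5:**
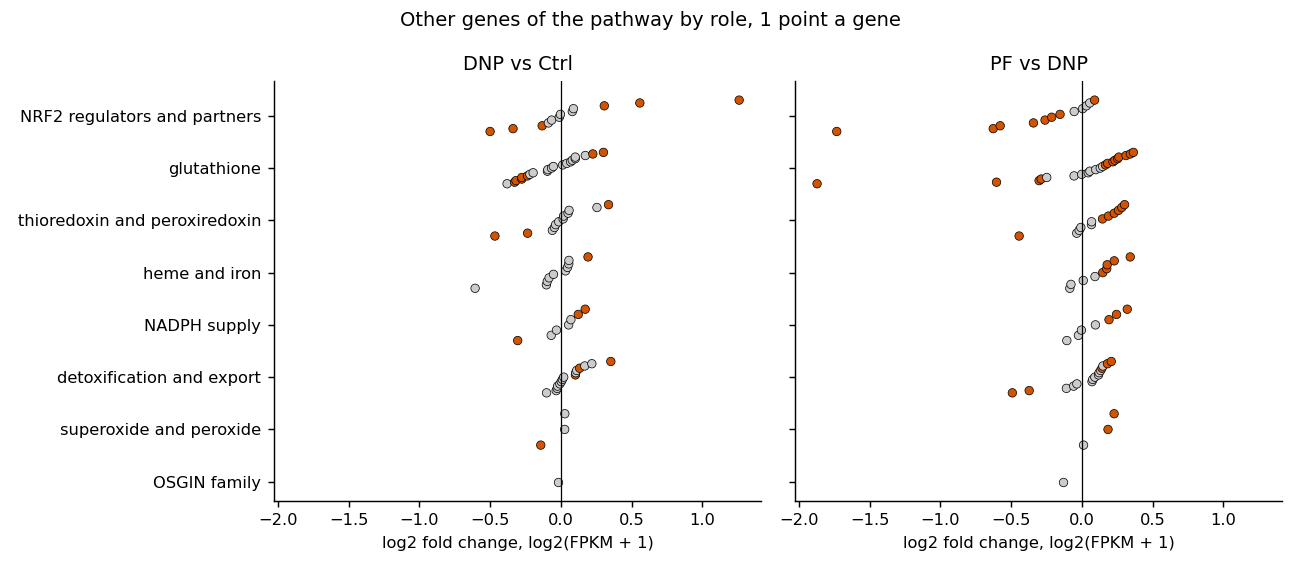
Log2 fold change on the log2(FPKM + 1) scale (horizontal axis) of the other pathway genes, 1 point a gene in rows by role, in DNP vs Ctrl and in PF vs DNP; orange points passed an adjusted p of 0.05 and grey points did not. The far points are Maff, at 1.26 in DNP vs Ctrl and -1.73 in PF vs DNP, and Chac1, at -1.87 in PF vs DNP.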

How the data were processed

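RNA-seq values of 9 samples were analysed, 3 each of Ctrl, DNP and PF, grouped by the sample labels. Per the submitters' processing notes, reads were mapped to rn6 with HISAT2 2.0.4, aligned with Bowtie2 2.2.5 and quantified with RSEM 1.2.12. The authors deposited normalized values, 1 for each gene in a sample, under a heading that names no unit, and they were taken to be FPKM. The methods name a BGISEQ-500 sequencer, the labels Illumina library protocols. Each sample listed 38490 gene rows, of which 18006 had a value. Files were joined by gene identifier.

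Each comparison was fitted on log2(FPKM + 1) with limma 3.58.1 (R 4.3.3, trended empirical Bayes). Genes below 1 FPKM in more than 3 of the 6 samples were left out, p-values were adjusted by Benjamini-Hochberg over the genes tested, and the threshold was 0.05. The added 1 makes changes of low genes look smaller. Ratios and single genes had two-sided exact permutation tests (scipy 1.17.1). The fit was tested on simulated data. No count test was run, because FPKM values are not counts. The members and lists were chosen with earlier results of these data known. Genes named from the lists, other than Osgin2, were picked from those called in a comparison. The pick was from up to 2 with the highest and up to 2 with the lowest fold change, and not all are named. The 5 genes nearest to Osgin1 were named as well. Promoter windows were matched by gene identifier. Alternatives were a pseudocount of 0.1, no filter, all 3 groups in the fit, a replicate block, 2 other scales, a threshold of 0.01, no trend, each replicate left out, and PF replicate 1 alone.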

Additional observations from a re-analysis of the deposited data

How the results depend on the processing

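In DNP vs Ctrl, 3 members were called instead of 5 with no filter on low values and at a threshold of 0.01, and between 3 and 4 when each replicate was left out. The members lost without the filter were Srxn1 and Slc7a11 (adjusted p = 0.0683 and 0.0687). Over all genes, 1469 were called at a threshold of 0.01 instead of 3031, and 2359 with no filter, where more genes were tested. With each replicate left out, 2099 to 2736 genes were called in DNP vs Ctrl, 4138 to 4796 in PF vs DNP and 5147 to 5541 in PF vs Ctrl, and the members called numbered 5 to 6 in PF vs DNP and 6 to 7 in PF vs Ctrl. The fold changes that reversed belonged to genes that were not called: Gclc in DNP vs Ctrl by median ratios (0.000332), by the mean sum (0.015) and with a replicate left out (-0.048 to 0.023), Gclm in DNP vs Ctrl with a replicate left out (-0.037 to 0.096), and Keap1 in PF vs Ctrl by median ratios (0.00318) and with a replicate left out (-0.116 to 0.025). The cause was not tested. PF replicate 1 alone, assumed to vary like the other group, left the direction of every called member as it was, with Gclm no longer called (adjusted p = 0.146 against DNP and 0.196 against Ctrl) and Hmox1 called in PF vs DNP (adjusted p = 0.0488).

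The correlation of the deviations of same-numbered samples ran from -0.0739 to 0.0514 in DNP vs Ctrl, from -0.0822 to 0.00049 in PF vs DNP and from 0.083 to 0.189 in PF vs Ctrl. It was above 0 for all 3 numbers only in PF vs Ctrl, where it was 0.0908, 0.189 and 0.083. The main fits did not take the numbers as pairs, so the fits with a replicate block are given beside them. With the replicate block, 4 members were called in DNP vs Ctrl (Srxn1 lost, adjusted p = 0.0649), 7 in PF vs DNP (Hmox1 gained, adjusted p = 0.0458) and 8 in PF vs Ctrl (Nfe2l2 gained, adjusted p = 0.0423). Of the 10392 genes tested in DNP vs Ctrl, the block called 2697 instead of 3031. Of the 10329 tested in PF vs DNP, it called 4675 instead of 5042. In PF vs Ctrl, 57.7% of all genes were called without the block. The share with the block is not given, so the 8 members there have no background from the same fit.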
